A study of Homo sapiens with 12 samples.

Results

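The genes described here build the kinetochore, the protein assembly on each centromere that holds a chromosome to the spindle, or belong to the spindle checkpoint that watches over it. The set is a list of 36 gene symbols picked by function, with earlier results of these data known. It was looked up by symbol among the 26475 entries of the count table. All 36 symbols were found, and all 36 passed the filter on low counts that left 15353 genes for testing. RNA was measured in A375 cells, a human melanoma line, in 12 libraries of poly(A)-selected RNA, 3 for each of 4 treatments lasting 24 h. The OF1+XL413 cells, called the combination below, had 1 µM of each inhibitor, the XL413 cells had 1 µM XL413, the OF1 cells had 1 µM OF1, and the DMSO cells had the vehicle. XL413 blocks CDC7, a kinase that starts DNA replication, and OF1 blocks the bromodomains of BRPF1, BRPF2 and BRPF3, scaffolds of histone acetyltransferase complexes. The submitters call the libraries of a treatment biological replicates, without stating separate cultures, so a p-value here reflects only how these libraries varied.

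Centromeres are marked by nucleosomes that carry the histone H3 variant CENP-A. A group of inner proteins, the constitutive centromere-associated network (CCAN), sits on these nucleosomes and carries the MIS12 and NDC80 complexes, and NDC80 binds microtubules. While a kinetochore is unattached, checkpoint proteins of the MAD and BUB families gather there and hold the cell in mitosis by blocking the anaphase-promoting complex. Many of these genes are transcribed mainly in G2 and mitosis, and many of their promoters are repressed outside those phases through a short element called CHR. In bulk RNA a change in the share of cells in a phase and a change in RNA per cell cannot be told apart.

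In the combination 10 of the 36 genes rose and none fell against DMSO, where 10.7% of all genes tested passed (5.65% rose and 5.07% fell), and 5 of the 10 belong to the 6 checkpoint genes. The gains were small: the largest was CENPH, 1.25-fold. XL413 alone raised 4 of the 36, CENPA, CENPH, NUF2 and BUB1, where 2.8% of all genes passed (1.26% rose and 1.54% fell). OF1 alone raised or lowered none of the 36, where 1.15% of all genes passed (0.58% rose and 0.567% fell). Both long genes of the outer corona, CENPE and CENPF, had lower mean levels with XL413 than with DMSO. Neither passed the test as run. Of 14 alternatives for XL413 against DMSO, 3 called CENPE fallen and 5 called CENPF fallen. Those counts include an alternative added after the data were seen, and no fit that left out a library called either gene. A gene passed where its adjusted p was under 0.05 in edgeR's quasi-likelihood test with Benjamini-Hochberg adjustment over all 15353 genes.

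The libraries held 30499559 to 36062138 counts. Levels are given as CPM, counts scaled to a common library size,, and fold changes on the log2 scale with a standard error (SE). The cells carried SOX10, the melanocyte lineage factor, at mean levels of 329 to 365 CPM per treatment, while MLANA, TYR and DCT, 3 pigment cell genes, did not pass the filter on low counts. The 5 melanoma genes tested summed to 399 to 466 CPM over all libraries, and 1 of them fell in the combination. All libraries also held RNA of skeletal muscle genes. The summed level of 17 muscle genes was 23.4 to 99.4 CPM in the combination, 132 to 294 CPM with XL413, 128 to 299.5 CPM with OF1 and 89.4 to 239 CPM with DMSO, and no muscle gene was at 0 in any library. Against DMSO 4 of the 17 fell in the combination, 0 passed with XL413 and 0 with OF1. The sum of 8 fibroblast genes was 52.8 to 139 CPM in the combination, 206 to 248 CPM with XL413, 225 to 253 CPM with OF1 and 184 to 236 CPM with DMSO, and 5 of the 8 fell in the combination. Combination replicates 2 and 3 lay far from the other 10 libraries on principal component 1 (24.1% of variance), with scores of -33.4 and -31.5, while replicate 1 scored -6.99. The counts of members that passed are therefore also given, where members passed, with the mean log2 level of the muscle genes (the muscle score) as a covariate and with combination replicate 1 alone. The part of the fibroblast transcripts in these counts was not tested.

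Promoters in RefSeq (GRCh38.p14), each covering 250 bases before a start listed for the gene and 50 after it, matched 30 of the 36 genes by symbol. The gene positions given below are also RefSeq's on that build. For CENPI the window, chrX:101100808-101101107, lies inside the gene, whose RefSeq position starts at 101098204. It is counted among the 30 and held none of the motifs searched. No promoter was matched for CENPH, CENPL, CENPM, BUB3, TTK and KNTC1. The sequences of CENPA, NDC80, NUF2, BUB1, BUB1B and CENPF are shown as examples picked with the results known. They do not stand for the whole set: CENPF passed in no comparison as run. MAD2L1, CENPW and MAD1L1 rose in the combination and had promoters that are not shown. They are written along the gene, and capitals mark the CHR element (TTTGAA), the NF-Y box (CCAAT) and an E2F site (TTCCCGCC), each searched on both strands, so that a match on the other strand appears as the reverse complement. The windows are chr2:26785806-26786105 on the plus strand for CENPA, chr18:2571307-2571606 on the plus strand for NDC80 and chr1:163321704-163322003 on the plus strand for NUF2. Those of the checkpoint genes are chr2:110678014-110678313 on the minus strand for BUB1 and chr15:40160819-40161118 on the plus strand for BUB1B, and that of CENPF is chr1:214602945-214603244 on the plus strand.
CENPA: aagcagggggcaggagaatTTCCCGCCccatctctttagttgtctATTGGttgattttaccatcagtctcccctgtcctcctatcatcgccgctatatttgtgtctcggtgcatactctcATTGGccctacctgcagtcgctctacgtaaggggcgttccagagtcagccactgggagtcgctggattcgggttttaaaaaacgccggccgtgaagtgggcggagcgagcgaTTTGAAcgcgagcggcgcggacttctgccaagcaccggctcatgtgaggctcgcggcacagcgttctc
NDC80: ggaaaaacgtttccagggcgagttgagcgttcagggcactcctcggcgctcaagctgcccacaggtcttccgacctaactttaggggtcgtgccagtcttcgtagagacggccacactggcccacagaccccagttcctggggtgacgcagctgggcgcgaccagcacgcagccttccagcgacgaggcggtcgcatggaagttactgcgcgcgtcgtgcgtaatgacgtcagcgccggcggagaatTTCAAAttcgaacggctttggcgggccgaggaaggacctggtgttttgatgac
NUF2: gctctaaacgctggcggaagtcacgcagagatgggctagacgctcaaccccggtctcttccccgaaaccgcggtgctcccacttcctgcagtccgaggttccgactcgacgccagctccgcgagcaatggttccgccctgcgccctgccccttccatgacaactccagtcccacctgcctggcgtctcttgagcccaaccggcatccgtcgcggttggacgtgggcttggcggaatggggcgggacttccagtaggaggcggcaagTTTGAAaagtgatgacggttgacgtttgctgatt
BUB1: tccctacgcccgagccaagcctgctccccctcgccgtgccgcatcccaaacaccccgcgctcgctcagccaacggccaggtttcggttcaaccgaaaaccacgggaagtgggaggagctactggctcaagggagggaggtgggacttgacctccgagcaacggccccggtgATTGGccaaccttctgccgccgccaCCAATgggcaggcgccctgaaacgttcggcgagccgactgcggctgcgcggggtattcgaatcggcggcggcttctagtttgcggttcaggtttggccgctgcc
BUB1B: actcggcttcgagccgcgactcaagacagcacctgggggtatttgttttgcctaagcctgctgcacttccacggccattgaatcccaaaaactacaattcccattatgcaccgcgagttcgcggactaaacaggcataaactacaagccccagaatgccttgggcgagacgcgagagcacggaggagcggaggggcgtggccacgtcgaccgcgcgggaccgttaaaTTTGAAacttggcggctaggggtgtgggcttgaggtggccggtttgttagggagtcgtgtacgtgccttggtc
CENPF: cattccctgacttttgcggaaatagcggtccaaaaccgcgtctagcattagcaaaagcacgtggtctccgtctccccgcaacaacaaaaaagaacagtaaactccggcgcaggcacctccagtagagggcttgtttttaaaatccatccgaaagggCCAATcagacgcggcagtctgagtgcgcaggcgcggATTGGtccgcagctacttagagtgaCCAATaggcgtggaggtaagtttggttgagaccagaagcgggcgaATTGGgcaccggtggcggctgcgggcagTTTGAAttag

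In CENPA the CHR element began 18 bases before the start, with 2 NF-Y boxes and an E2F site farther upstream. BUB1B held a CHR element 23 bases before the start, NDC80 held one across it, and NUF2 held one that began at base 17 after it. CENPF had 4 NF-Y boxes and a CHR element, and BUB1 had 2 NF-Y boxes and no TTTGAA in the window. Only these exact letters were searched for the CHR element, so other forms of it would not be counted here. The CHR letters were in 13 of the 30 promoters (43.3%), against 15.4% of all 27305 promoters in the table. In 12 of the 13 the element lay within 50 bases of the start or downstream of it. NF-Y boxes were in 16 of the 30 (53.3%), against 35.7% of all promoters, and the E2F site was in 6 (20%), against 3.18%. Of the 10 genes that rose in the combination, 7 had a promoter in the table and 4 of these held TTTGAA. Among the other 26 genes 23 had a promoter and 9 held these letters. These matches describe letters in a window, and binding was not measured.

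**Figure D1:**
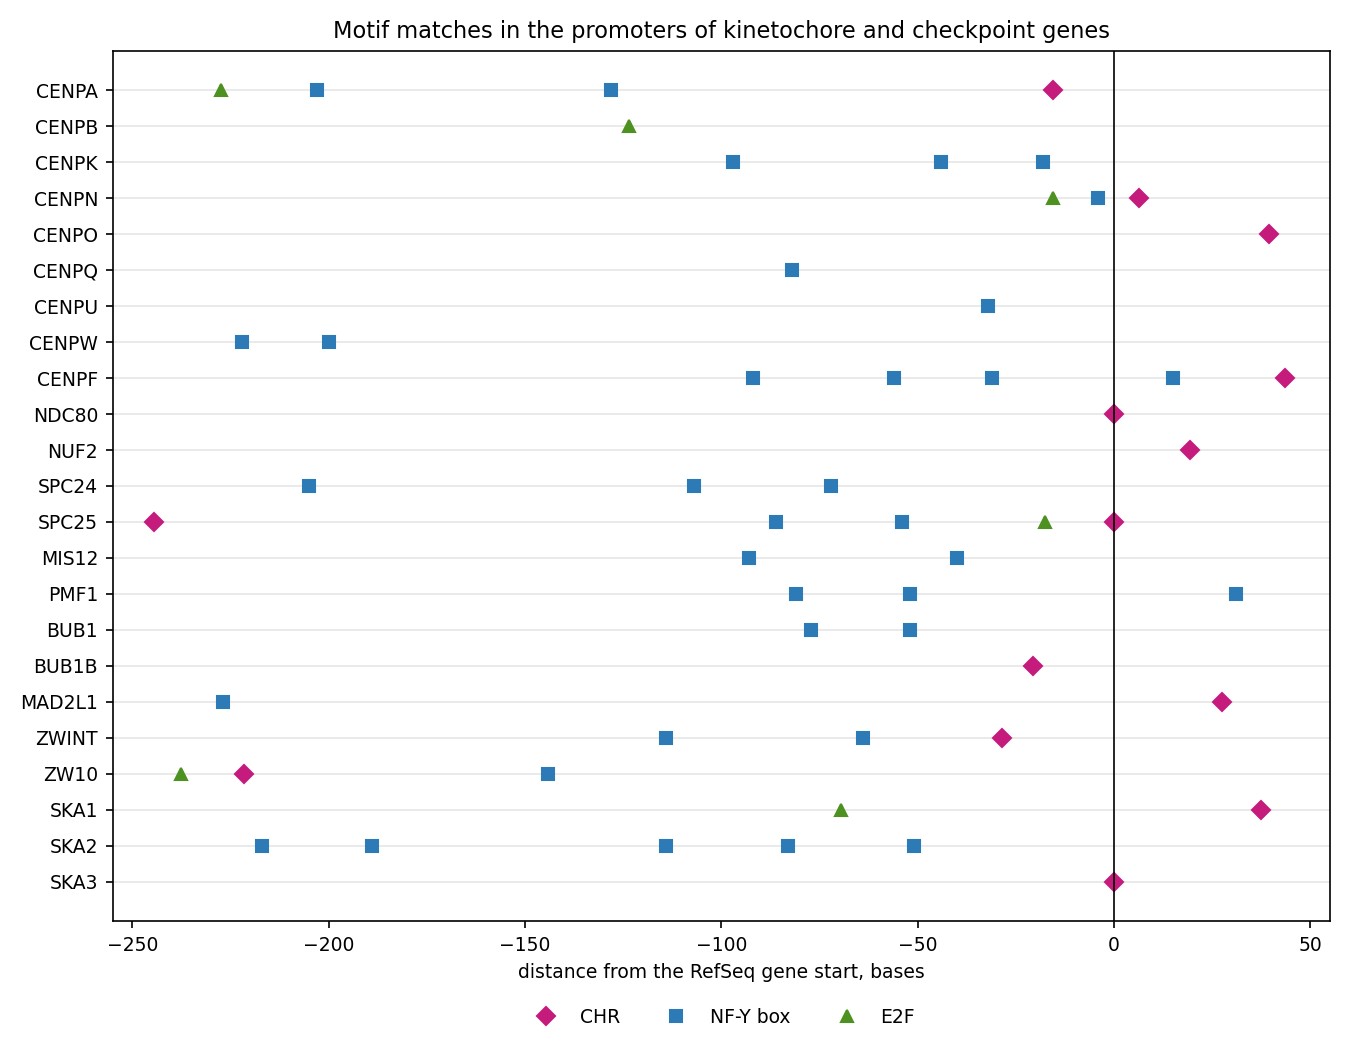
Position of CHR, NF-Y box and E2F matches, in bases from the RefSeq gene start (horizontal axis), in the promoters of the 23 members that held a match. Of the kinetochore and checkpoint genes 30 had a promoter, and the table holds 27305 promoters of the same length. The CHR letters TTTGAA are in 43.3% of the members' promoters and 15.4% of all promoters.

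CENPA encodes the histone variant that marks centromeres, and CENPB a protein that binds a motif in centromeric satellite DNA. CENPA (chr2:26786056-26794589) had 25.0, 25.0 and 26.5 CPM in the combination, 28.2, 33.9 and 28.6 CPM with XL413, 23.1, 24.3 and 26.7 CPM with OF1, and 23.3, 22.9 and 24.9 CPM with DMSO. All 3 XL413 libraries lay above every other library, and XL413 replicate 2 lay highest. XL413 raised CENPA by 0.35 ± 0.07 log2 against DMSO (adjusted p = 0.0224 by edgeR's quasi-likelihood test), the largest change of any member in that comparison. In the combination its change from DMSO was 0.11 log2 (adjusted p = 0.394). The difference between the combination and XL413 was -0.24 ± 0.07 log2 with an adjusted p of 0.0777, and the departure from the sum of the single changes was -0.30 ± 0.10 log2 with an adjusted p of 0.274, so neither passed. CENPA no longer passed against DMSO without XL413 replicate 2, without DMSO replicate 1 or without DMSO replicate 2, where its change ran down to 0.26 log2. CENPB averaged 238 ± 8.6 CPM in the combination, 236 ± 8.1 CPM with XL413, 246 ± 13 CPM with OF1 and 249 ± 5.4 CPM with DMSO (SD, n = 3 each), and passed in no comparison.

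Of the 12 CCAN genes, 3 rose in the combination, CENPH, CENPL and CENPW, and 11 of the 12 had log2 changes above zero. CENPH (chr5:69189583-69210357), a subunit of the CENP-H/I/K/M group, had 66.3, 59.1 and 65.3 CPM in the combination, 60.8, 62.9 and 63.2 CPM with XL413, 54.3, 53.7 and 55.1 CPM with OF1, and 50.4, 49.3 and 53.0 CPM with DMSO. Every library with XL413 in it lay above all 6 libraries without it, and the OF1 libraries lay above those of DMSO. CENPH rose by 0.32 ± 0.05 log2 in the combination (adjusted p = 0.000652) and by 0.29 ± 0.05 log2 with XL413 (adjusted p = 0.00457) in the edgeR quasi-likelihood test. It kept both calls under every alternative tried, 15 for the combination and 14 for XL413. The OF1 change was 0.09 log2 (adjusted p = 0.372), the smallest p of any member in that comparison.

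CENPL and CENPW encode further CCAN proteins, CENPL in a pair with CENP-N that reads the CENP-A nucleosome and CENPW in a histone-fold pair with CENP-T that binds DNA. CENPL had 27.4, 27.0 and 26.9 CPM in the combination, 26.8, 26.0 and 26.0 CPM with XL413, 24.7, 24.8 and 24.8 CPM with OF1, and 25.0, 24.5 and 22.8 CPM with DMSO. CENPW had 34.6, 34.8 and 36.03 CPM in the combination, 31.5, 34.9 and 34.1 CPM with XL413, 29.3, 32.1 and 32.2 CPM with OF1, and 31.6, 29.3 and 31.3 CPM with DMSO. The combination and DMSO did not overlap for either gene. CENPL rose by 0.17 ± 0.04 log2 (adjusted p = 0.026) and CENPW by 0.19 ± 0.05 log2 (adjusted p = 0.0297) in the combination by edgeR's quasi-likelihood test. Leaving out either of combination replicates 2 and 3 or of DMSO replicates 2 and 3 ended both calls. With offsets for transcript length and GC content, an alternative added after the data were seen, the CENPW change was 0.05 log2 (adjusted p = 0.376, edgeR's quasi-likelihood test). The other 9 CCAN genes, CENPI, CENPK, CENPM, CENPN, CENPO, CENPP, CENPQ, CENPT and CENPU, passed in no comparison, and their combination changes ran from -0.12 log2 in CENPP to 0.22 log2 in CENPI. Parts of CENPO (27.0% of its exon bases), CENPP (38.0%), CENPN (12.8%), CENPU (11.7%) and CENPT (10.8%) overlap a gene on the opposite strand, and whether counting used the strand is not given in the sources used here.

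In the NDC80 complex, the rod that grips microtubules, the 2 subunits of the outer end rose in the combination and the 2 of the inner end did not pass. NDC80 (chr18:2571557-2616635) had 47.2, 48.2 and 47.1 CPM in the combination, 44.5, 45.1 and 44.5 CPM with XL413, 40.2, 42.2 and 42.9 CPM with OF1, and 40.6, 41.2 and 41.8 CPM with DMSO. NUF2 (chr1:163321954-163355759), its coiled-coil partner, had 116, 112 and 109 CPM in the combination, 109, 113 and 119 CPM with XL413, 96.3, 96.1 and 99.5 CPM with OF1, and 95.4, 101 and 100.02 CPM with DMSO. For both genes all 6 libraries with XL413 lay above all 6 without it. NDC80 rose by 0.21 ± 0.04 log2 in the combination (adjusted p = 0.00291, edgeR's quasi-likelihood test), and its XL413 change of 0.12 log2 did not pass. NUF2 rose by 0.18 ± 0.04 log2 in the combination (adjusted p = 0.00838) and by 0.20 ± 0.04 log2 with XL413 (adjusted p = 0.0161) in the same test, and the XL413 call was lost when any of 4 libraries was left out, XL413 replicates 2 and 3 and DMSO replicates 1 and 3. SPC24 and SPC25, which join the rod to the MIS12 complex, had combination changes of -0.20 and -0.03 log2 and XL413 changes of -0.19 and -0.05 log2. SPC24, chosen after its values were seen, averaged 11.4 ± 1.2 CPM in the combination, 11.4 ± 0.80 CPM with XL413, 12.2 ± 1.0 CPM with OF1 and 13.0 ± 0.96 CPM with DMSO (SD, n = 3 each).

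**Figure D2:**
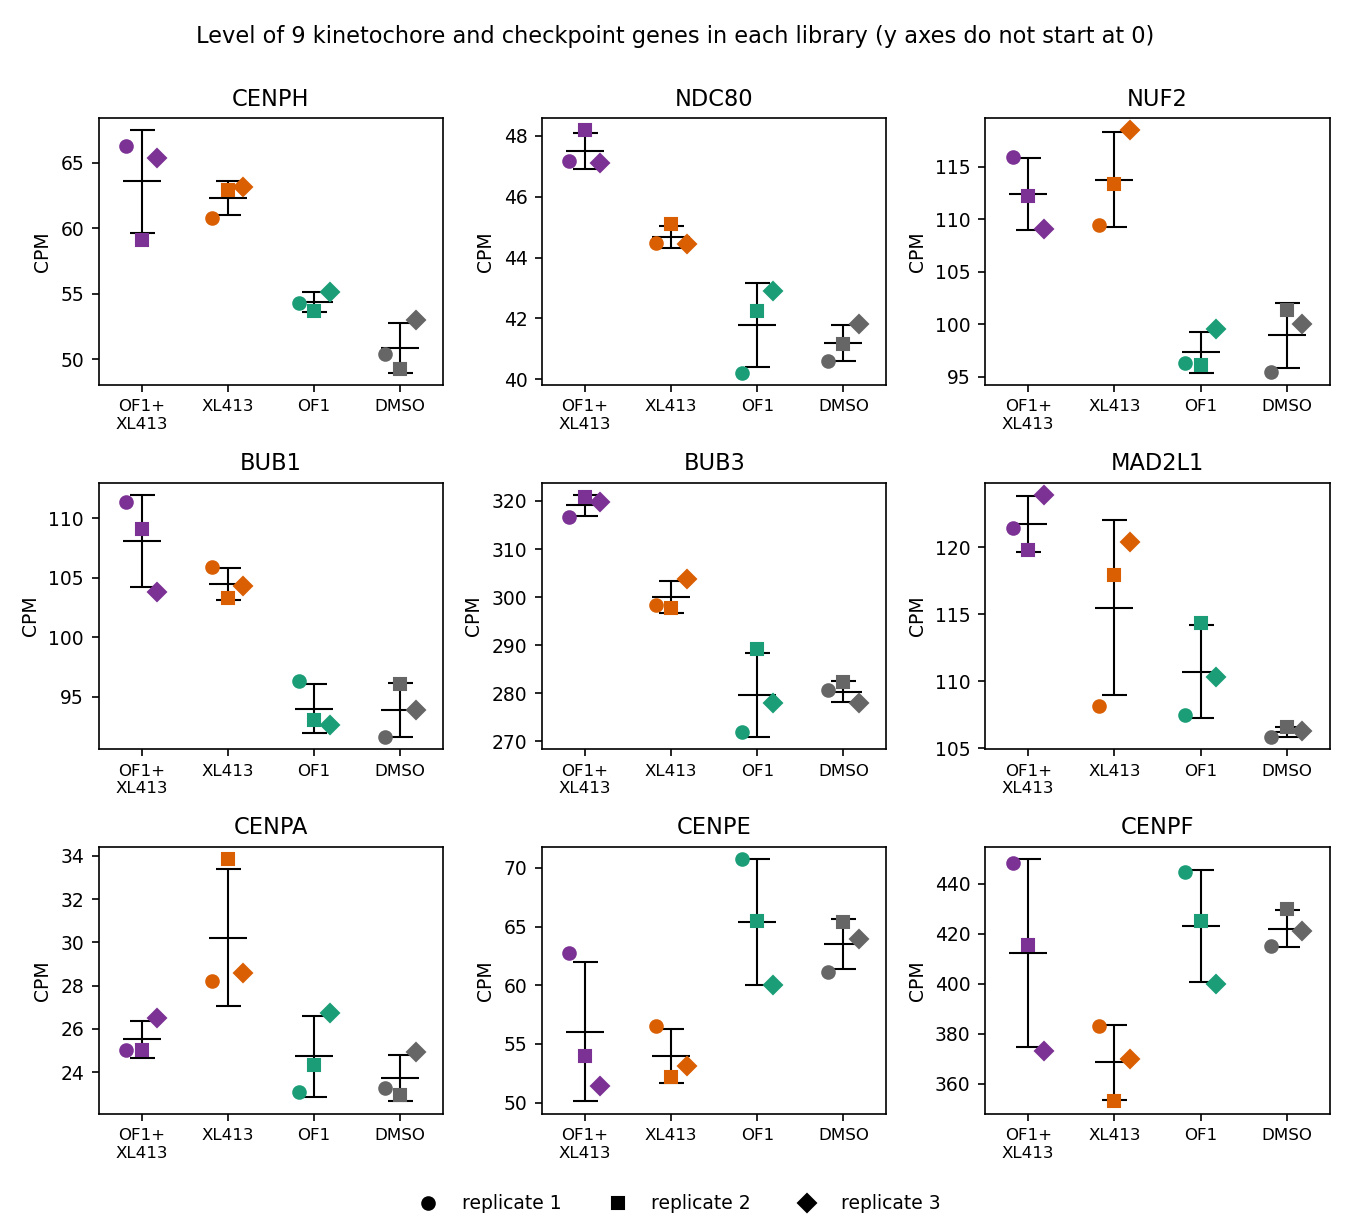
Level in CPM (vertical axes, one panel per gene) of CENPH, NDC80, NUF2, BUB1, BUB3, MAD2L1, CENPA, CENPE and CENPF in each of the 12 libraries by treatment, with the mean and SD of 3 libraries. The 6 libraries with XL413 lie above the 6 without it for CENPH, NDC80, NUF2, BUB1 and BUB3, and CENPA is highest with XL413 alone.

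The spindle checkpoint held the largest share of genes that rose, 5 of 6 in the combination. BUB3, a WD-repeat protein that brings the BUB kinases to kinetochores, had 317, 321 and 319.9 CPM in the combination, 298, 298 and 304 CPM with XL413, 272, 289 and 278 CPM with OF1, and 281, 282 and 278 CPM with DMSO. The 3 combination libraries lay above all others, the XL413 libraries next, and OF1 and DMSO overlapped. BUB3 rose by 0.19 ± 0.03 log2 in the combination (adjusted p = 0.00124), while its XL413 change was 0.10 log2 (adjusted p = 0.0881) by edgeR's quasi-likelihood test. BUB1, the kinase that marks centromeric histone H2A, had 111, 109 and 104 CPM in the combination, 106, 103 and 104 CPM with XL413, 96.4, 93.0 and 92.6 CPM with OF1, and 91.6, 96.1 and 94.0 CPM with DMSO. All 6 libraries with XL413 lay above all 6 without it. BUB1 rose by 0.20 ± 0.04 log2 in the combination (adjusted p = 0.0026) and by 0.15 ± 0.04 log2 with XL413 (adjusted p = 0.0343) in the same edgeR test, the XL413 call being lost when any of the 6 libraries compared was left out.

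MAD2L1 encodes MAD2, the protein that changes shape at unattached kinetochores and binds the activator CDC20. It had 121, 119.8 and 124 CPM in the combination, 108, 118 and 120.4 CPM with XL413, 108, 114 and 110.3 CPM with OF1, and 106, 107 and 106 CPM with DMSO. The DMSO libraries lay below all 9 others, and XL413 overlapped both the combination and OF1. MAD2L1 rose by 0.20 ± 0.04 log2 in the combination (adjusted p = 0.007, edgeR's quasi-likelihood test). BUB1B, which encodes the BUBR1 part of the checkpoint complex, and MAD1L1, the anchor of MAD2 at the kinetochore, rose by 0.11 and 0.14 log2, and leaving out single libraries ended the BUB1B call in 4 of 6 cases and the MAD1L1 call in 5 of 6. TTK, the kinase MPS1 that starts the signal, was the only checkpoint gene that did not pass in the combination and is given after its values were seen, at 47.1 ± 3.3 CPM in the combination, 47.3 ± 1.8 CPM with XL413, 46.9 ± 0.85 CPM with OF1 and 45.6 ± 1.3 CPM with DMSO (SD, n = 3 each).

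None of the 4 genes of the MIS12 complex, the bridge between inner and outer kinetochore, passed against DMSO in any treatment. Their combination changes ran from 0.03 log2 in PMF1 to 0.12 log2 in MIS12, and DSN1 had 0.11 log2. NSL1 had 49.2, 47.7 and 52.9 CPM in the combination, 44.5, 44.8 and 43.6 CPM with XL413, 48.3, 46.8 and 49.5 CPM with OF1, and 45.6, 47.3 and 47.0 CPM with DMSO. The XL413 libraries lay below all 9 others. NSL1 was the only member that rose in the combination against XL413, by 0.17 ± 0.04 log2 (adjusted p = 0.0401, edgeR's quasi-likelihood test), and 8 of 15 alternatives ended that call. PMF1 shares 587 exon bases, 23.3% of its own, with the readthrough gene PMF1-BGLAP on the same strand, so its counts are uncertain.

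CENPE, a kinesin of the kinetochore corona, and CENPF, a large corona protein, were the only members of their role group. CENPE had 62.7, 54.0 and 51.4 CPM in the combination, 56.6, 52.2 and 53.1 CPM with XL413, 70.7, 65.4 and 60.0 CPM with OF1, and 61.2, 65.4 and 63.9 CPM with DMSO. The XL413 libraries lay below those of OF1 and DMSO, and the combination overlapped all 3 other groups. The change was -0.23 ± 0.07 log2 with XL413 (adjusted p = 0.0862) and -0.18 log2 in the combination (adjusted p = 0.112), by edgeR's quasi-likelihood test. The combination differed from OF1 by -0.22 log2 (adjusted p = 0.0739). Without combination replicate 1, the highest of its group, CENPE fell by 0.27 log2 against DMSO (adjusted p = 0.0105) and by 0.31 log2 against OF1 (adjusted p = 0.00585) in the edgeR test. Against OF1 it was also called fallen by DESeq2 (adjusted p = 0.0383), with no filter (adjusted p = 0.0428 by edgeR) and with the replicate number as a block (adjusted p = 0.0454 by edgeR). With the offsets described below counted, 5 of 15 alternatives called CENPE fallen in the combination against OF1. Against DMSO 2 of 15 did so. CENPF, chosen after its values were seen, had 448, 415 and 373 CPM in the combination, 383, 353 and 369.9 CPM with XL413, 445, 425 and 400.0 CPM with OF1, and 415, 429.9 and 421 CPM with DMSO. Again the XL413 libraries lay below those of OF1 and DMSO, and combination replicate 1 was the highest library of all. The CENPF change was -0.20 ± 0.06 log2 with XL413 (adjusted p = 0.0742, edgeR's quasi-likelihood test) and -0.03 log2 in the combination. With XL413 it was called fallen with no filter (adjusted p = 0.0456), with the replicate number as a block (adjusted p = 0.0492) and with only the 6 libraries compared in the fit (adjusted p = 0.00293), all by edgeR, and CENPE was called fallen in the last of these (adjusted p = 0.00403).

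Both corona genes have long transcripts, 8612 bases for CENPE and 10307 for CENPF, and across all genes the XL413 change varied with length. Its median was -0.04 log2 over genes longer than 6000 bases and 0.05 log2 over genes shorter than 2000. These medians were -0.03 and 0.04 log2 in the combination against DMSO, and -0.05 and 0.06 log2 for XL413 added to OF1. The 11 members shorter than 2000 bases had medians of 0.09 log2 with XL413, 0.08 log2 in the combination and 0.05 log2 for XL413 added to OF1. For the 18 members of 2000 to 4000 bases they were 0.05, 0.11 and 0.09 log2. Long genes also shifted between libraries of one treatment. The median log2 deviation of 2314 long genes, by replicate, was 0.044, 3.98e-05 and -0.081 in the combination and -0.004, -0.060 and -0.029 with XL413. It was 0.087, 0.020 and -0.006 with OF1 and -0.001, 0.020 and 0.029 with DMSO. CENPE and CENPF followed this library order in each treatment, except in DMSO replicates 2 and 3. Whether treatment or library gave the length trend was not tested. The other members longer than 6000 bases were CENPP, BUB3 and KNTC1, and of these BUB3 rose in the combination. With the length and GC offsets CENPE had an XL413 change of -0.19 log2 (adjusted p = 0.00623) and CENPF one of -0.16 log2 (adjusted p = 0.000615), and both then passed edgeR's quasi-likelihood test as fallen. ZWINT also passed with these offsets, at -0.11 log2 (adjusted p = 0.0217). In that fit XL413 again raised 4 members, and 7 passed in all, where 590 of all genes rose and 660 fell. In the combination against DMSO the same offsets gave 11 members risen and 2 fallen, where 1248 of all genes rose and 1212 fell. The 2 were CENPE at -0.18 log2 (adjusted p = 0.00409) and ZWINT at -0.13 log2 (adjusted p = 0.0041) by edgeR's quasi-likelihood test. Without the offsets 867 genes rose and 778 fell. The members' median change in the combination was 0.06 log2 with the offsets and 0.11 log2 without them. These medians were 0.04 and 0.06 log2 with XL413, and 0.04 and 0.07 log2 for XL413 added to OF1.

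**Figure D3:**
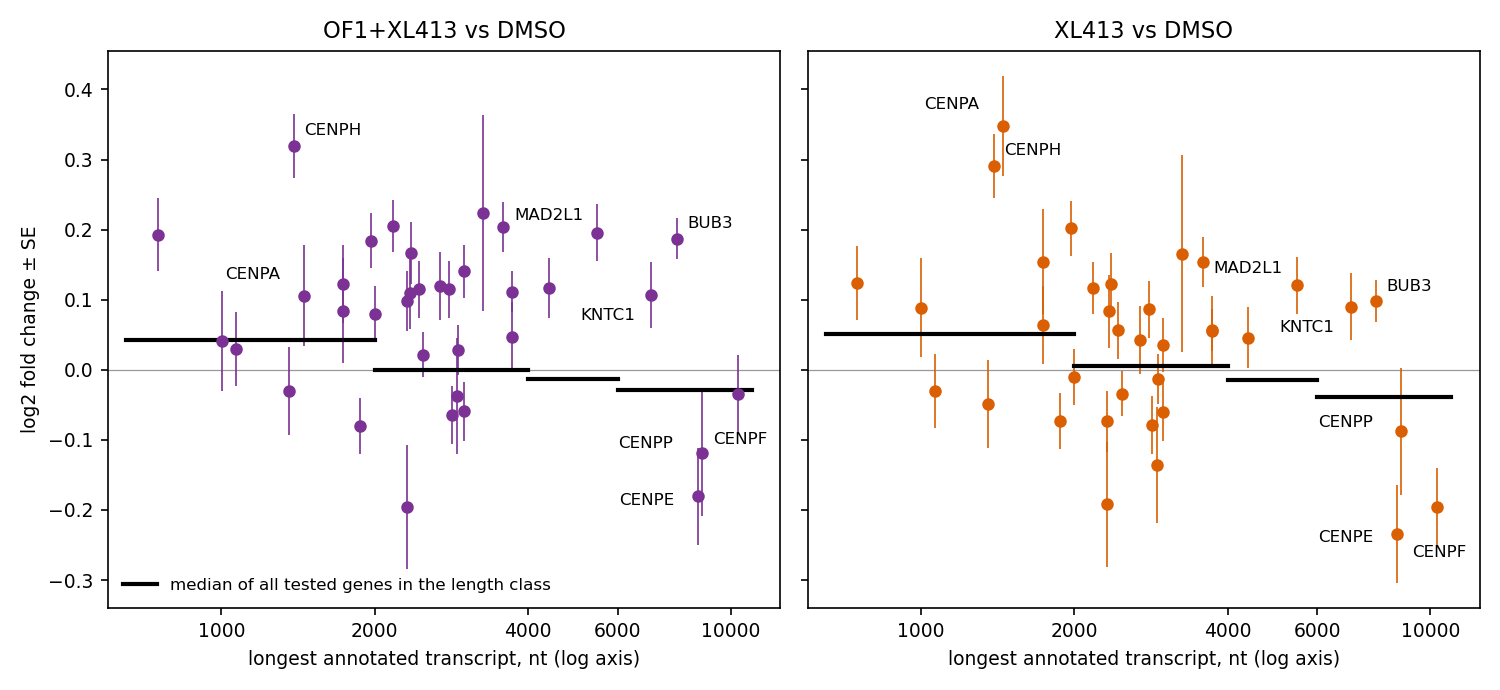
Change on the log2 scale (vertical axis) against transcript length in bases (horizontal log axis) for the 36 members, with the median of all genes per length class. CENPE and CENPF, at 8612 and 10307 bases, lie lowest with XL413 among members over 6000 bases.

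The RZZ complex brings the motor dynein to kinetochores, ZWINT links it to the outer kinetochore, and the SKA complex supports NDC80 on microtubules. None of these 6 genes passed in any comparison. KNTC1, which encodes the RZZ subunit ROD, had 72.4, 66.3 and 67.1 CPM in the combination, 66.6, 66.9 and 69.7 CPM with XL413, 66.7, 68.3 and 63.1 CPM with OF1, and 60.7, 67.2 and 63.1 CPM with DMSO. SKA2 had 76.0, 71.6 and 73.7 CPM in the combination, 70.6, 71.3 and 75.0 CPM with XL413, 68.6, 69.6 and 67.1 CPM with OF1, and 68.1, 65.3 and 71.1 CPM with DMSO. For SKA2 the combination lay above OF1 and DMSO without overlap, while the KNTC1 groups overlapped. Their combination changes were 0.11 log2 each, with adjusted p of 0.171 for KNTC1 and 0.0879 for SKA2 by edgeR's quasi-likelihood test. The other 4, ZW10, ZWINT, SKA1 and SKA3, had combination changes from -0.08 to 0.03 log2.

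Over all 36 members the median change in the combination was 0.11 log2 against DMSO, with 27 above zero, where the median was 0.00 log2 over all genes. An unadjusted p under 0.05 was reached by 19 members and by 25.6% of all genes. In 20 members all 3 combination libraries lay above all 3 DMSO libraries and in none did they lie below, where 13.8% of all genes lay above and 13.8% below. With the muscle score as a covariate 4 of the 10 still passed, CENPH, NDC80, BUB1 and BUB3, and 273 of all genes passed. The members' median change was 0.09 log2 with the covariate, as against 0.11 log2 in the fit reported. Why the other calls were lost was not tested. With combination replicate 1 alone, whose muscle sum of 99.4 CPM was within the range of the DMSO libraries and whose fibroblast sum of 139 CPM was below it, CENPH, NDC80, NUF2, BUB1 and BUB3 passed as risen and ZWINT as fallen, the single library being assumed to vary like the other groups. CENPH, NDC80, NUF2, BUB1, BUB3 and MAD2L1 passed whichever of the 6 libraries compared was left out. The count of members that passed was 6 without combination replicate 2, DMSO replicate 2 or DMSO replicate 3.

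**Figure D4:**
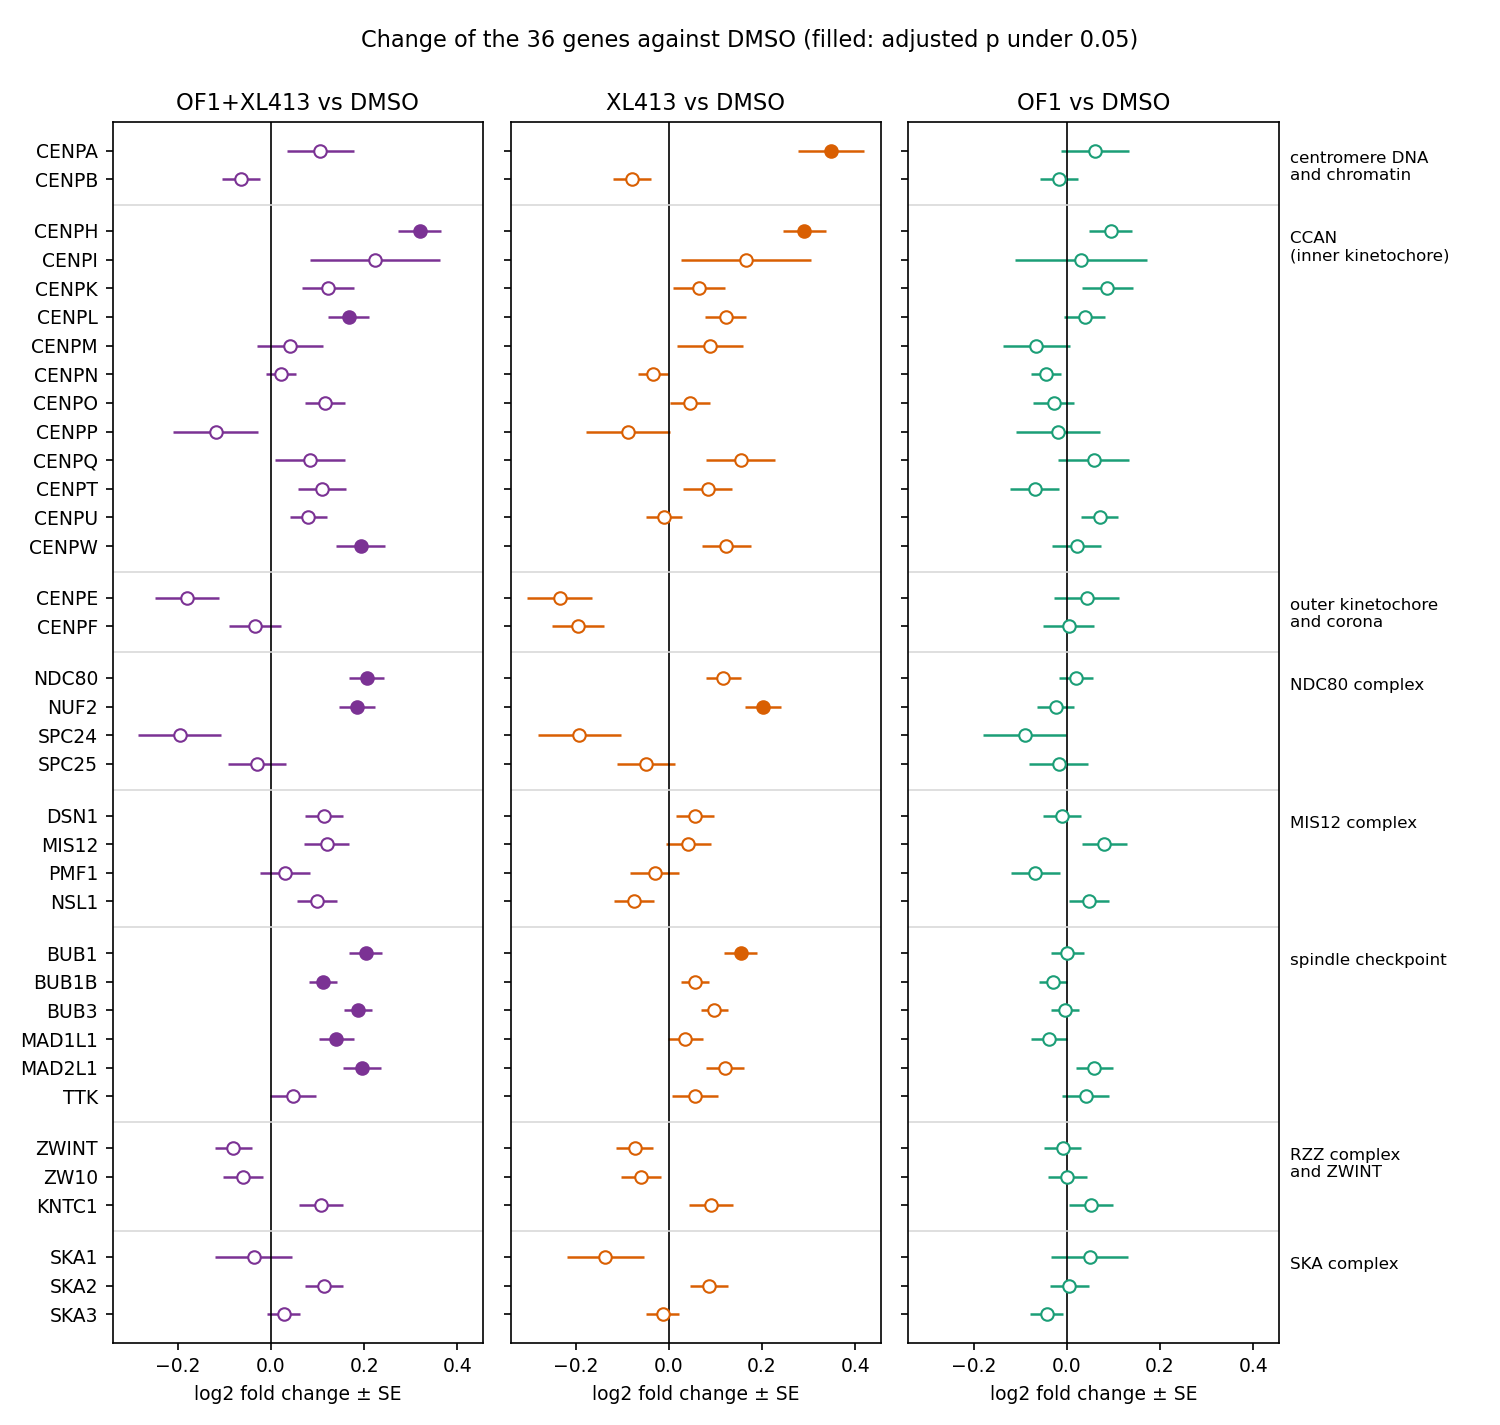
Change against DMSO on the log2 scale with its SE (horizontal axis) for the 36 members, grouped by role, in the combination, XL413 and OF1. Filled points passed at an adjusted p under 0.05, 10 in the combination, 4 with XL413 and none with OF1.

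With XL413 alone the members' median change was 0.06 log2, with 22 above zero and 14 below, and the median of all genes was 0.00 log2. An unadjusted p under 0.05 was reached by 12 members and by 18.6% of all genes. All 3 XL413 libraries lay above DMSO in 10 members (13.0% of all genes) and below in 6 (14.8% of all genes). XL413 replicate 2 and DMSO replicate 1 each weighed on this count, which was 1 without either of them, CENPH, and 2 without XL413 replicate 3, DMSO replicate 2 or DMSO replicate 3. With DESeq2 5 members rose, BUB3 being added, and CENPE and CENPF fell. With the muscle score as a covariate CENPA, CENPH and NUF2 passed, and BUB1 had a change of 0.15 log2 (adjusted p = 0.075, edgeR's quasi-likelihood test).

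OF1 alone changed none of the 36 by edgeR's quasi-likelihood test or by DESeq2. None had an unadjusted p under 0.05 either, a level that 14.4% of all genes reached. The members' OF1 changes ran from -0.09 to 0.09 log2, with a median of 0.00 log2. All 3 OF1 libraries lay above DMSO in 4 members (10.2% of all genes) and below in 1 (11.8% of all genes). In simulated XL413 and DMSO libraries of this size 52% of genes changed 1.2-fold were called. Those genes were drawn at random from all tested genes above a low level, so the share for these 36 with OF1 may differ. Small OF1 changes in them may have been missed.

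XL413 added to OF1, a comparison that shares no library with XL413 against DMSO, raised 7 members and lowered none in the test as run, where 5.5% of all genes passed (2.79% rose and 2.71% fell). In 16 members all 3 combination libraries lay above all 3 OF1 libraries and in none below, against 11.2% and 11.3% of all genes. The 7 that passed were CENPH (0.22 log2), NDC80 (0.19), NUF2 (0.21), BUB1 (0.20), BUB1B (0.14), BUB3 (0.19) and MAD1L1 (0.18). In 22 members the XL413 change was above zero both with and without OF1, in 9 it was below zero in both, and in 5 the signs differed, so that 31 of 36 had the same sign, against 63.0% of all genes. CENPH, NUF2 and BUB1 passed in both. With the muscle score as a covariate none of the 7 passed, nor did any with only these 6 libraries in the fit. The members' median change was 0.09 log2 with the covariate and 0.07 log2 with only the 6 libraries, as against 0.07 log2 in the fit reported, and with the covariate the 7 ran from 0.10 log2 in BUB1B and 0.11 log2 in MAD1L1 to 0.31 log2 in CENPH. Among all genes 9 passed with the covariate and 110 with only these libraries. Of the 17 muscle genes 16 fell in the same comparison, and so did 6 of the 8 fibroblast genes. With combination replicate 1 alone 2 members passed, without that replicate 14 did, and without combination replicate 2, OF1 replicate 1 or OF1 replicate 2 the count was 4.

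**Figure D5:**
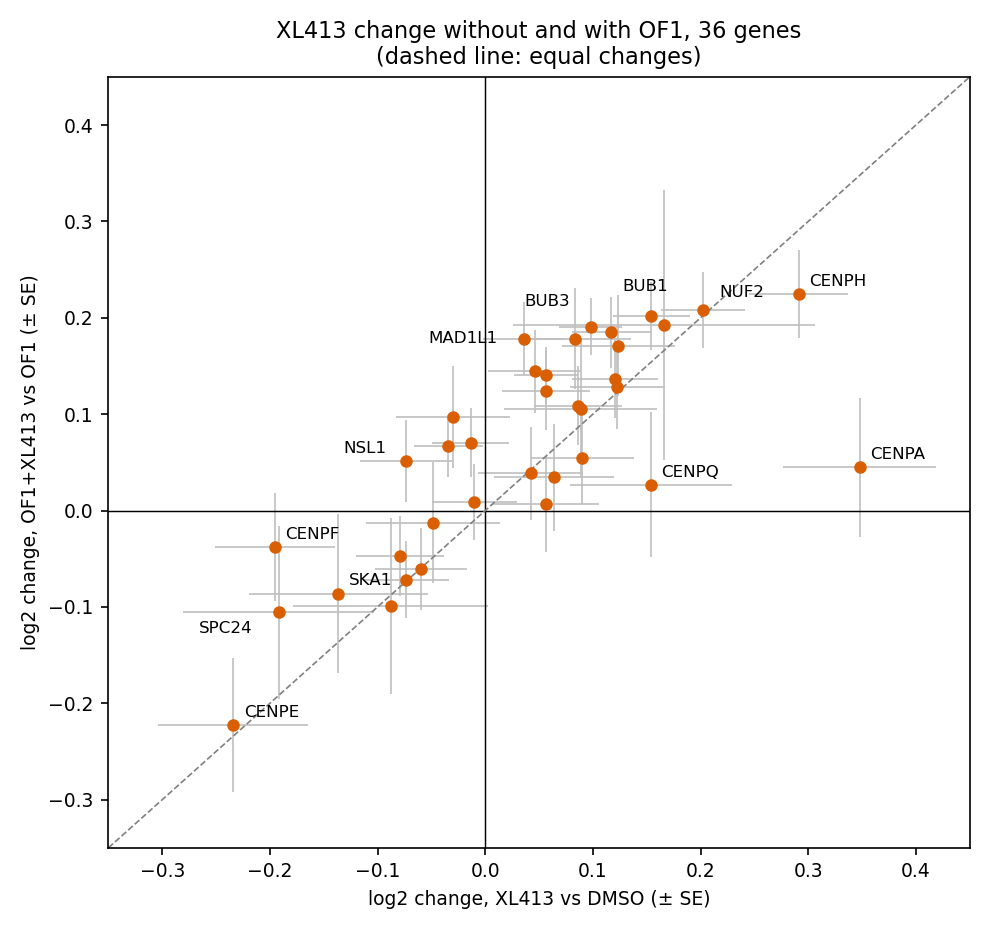
XL413 change on the log2 scale of the 36 members with OF1 present (combination against OF1, vertical axis) and without it (XL413 against DMSO, horizontal axis), 2 comparisons with no library in common. In 31 of 36 members the sign is the same, and CENPA lies far to the right, at 0.35 without OF1 and 0.05 with it.

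OF1 added to XL413 raised NSL1 alone among the members, where 3.41% of all genes passed (1.06% rose and 2.35% fell). The members' median change was 0.05 log2, with 28 above zero and 8 below. Over all genes the median was 0.01 log2, with 53.3% above zero. The combination lay above XL413 without overlap in 6 members (8.99% of all genes) and below in 1 (10.4% of all genes), and 7 members had an unadjusted p under 0.05 (16.8% of all genes). In this comparison 13 of the 17 muscle genes and 4 of the 8 fibroblast genes fell, and with the muscle score as a covariate no member passed. With combination replicate 1 alone NSL1 did not pass and CENPF did, at 0.28 log2 (adjusted p = 0.0251, edgeR's quasi-likelihood test). In 17 members the OF1 change was above zero with and without XL413, in 5 below zero in both, and in 14 the signs differed, so that 22 of 36 had the same sign, against 57.5% of all genes, and no member passed in both. No member, and no gene in the table (0.0%), differed from additivity of the 2 inhibitors by edgeR's quasi-likelihood test, though 4 members and 1566 genes (10.2%) had an unadjusted p under 0.05. DESeq2 called 103 genes there and none of the members. With the length and GC offsets CENPF passed, at 0.18 log2 (adjusted p = 0.0286, edgeR's quasi-likelihood test).

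Another 26 genes act beside these 36, in CENP-A loading, at the outer kinetochore, in checkpoint silencing, or in the chromosomal passenger complex and at sister centromeres. In the combination 9 of the 26 rose and 1 fell, where 5.65% of all genes rose and 5.07% fell, and the median change was 0.09 log2. BIRC5 (survivin), which carries the passenger complex to centromeres, had 171, 177 and 185 CPM in the combination, 176, 175 and 168 CPM with XL413, 141, 142 and 145 CPM with OF1, and 149.9, 151 and 149 CPM with DMSO. The libraries with XL413 lay above all others, and those of OF1 lay below those of DMSO. BIRC5 rose by 0.24 ± 0.03 log2 in the combination (adjusted p = 0.000639), by 0.21 ± 0.03 log2 with XL413 (adjusted p = 0.00773) and by 0.32 ± 0.03 log2 when XL413 was added to OF1 (adjusted p = 0.000159), by edgeR's quasi-likelihood test.

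HJURP, the chaperone that places CENP-A, had 94.5, 94.0 and 103 CPM in the combination, 90.6, 91.6 and 94.8 CPM with XL413, 79.5, 86.9 and 82.3 CPM with OF1, and 81.0, 81.4 and 77.7 CPM with DMSO. Here too the libraries with XL413 lay above those without it. HJURP rose by 0.28 ± 0.04 log2 in the combination (adjusted p = 0.00125) and by 0.21 ± 0.04 log2 with XL413 (adjusted p = 0.0248) in the same edgeR test. CKAP5, a microtubule polymerase that works with NDC80, rose by 0.19 log2 in the combination and by 0.12 log2 with XL413, and CDCA8 (borealin), another passenger subunit, rose by 0.18 log2 in the combination. ZWILCH, an RZZ subunit that is not among the 36, rose by 0.21 log2 in the combination, NDEL1, a dynein regulator, by 0.17 log2, and the spindle proteins KNSTRN and SPAG5 by 0.14 and 0.11 log2. CENPC, the CCAN protein that links CENP-A to MIS12, rose by 0.25 log2, and SPDL1 (Spindly), the dynein adaptor, fell by 0.13 log2, both named after their values were seen.

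With XL413 alone 3 of the 26 rose, HJURP, CKAP5 and BIRC5, and none fell, where 1.26% of all genes rose and 1.54% fell. With OF1 alone none passed the edgeR test, and 4 of the 26 had an unadjusted p under 0.05, about the 14.4% found over all genes. XL413 added to OF1 raised 7 of the 26, BIRC5, CDCA8, HJURP, CKAP5, KNSTRN, SPAG5 and ZWILCH, where 2.79% of all genes rose. KNL1, the scaffold on which the BUB proteins dock, listed in the table under its older symbol CASC5, averaged 62.2 ± 7.3 CPM in the combination, 54.6 ± 3.4 CPM with XL413, 65.5 ± 6.2 CPM with OF1 and 62.1 ± 0.61 CPM with DMSO (SD, n = 3 each, chosen after its values were seen), and passed in no comparison.

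The spread between replicates was small for most members. The median coefficient of variation over the 36 genes was 4.44% in the combination, 3.37% with XL413, 3.24% with OF1 and 2.82% with DMSO, and the highest of any gene and treatment was 24.3%, with OF1.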

How the data were processed

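RNA abundance was measured in 12 libraries of A375 cells, 3 per treatment. The values the authors deposited are expected counts, that is, read numbers estimated for each gene symbol with no scaling. The tools listed are RSEM 1.2.15 and Bowtie2 2.1.0, and the build is hg38, per the submitters' processing notes. The annotation used for counting is not given in the sources used here. The libraries were strand-specific and made from poly(A) RNA, per the labels' protocols. Of the values 10.6% were not whole, and all were rounded.

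The 15353 genes that passed filterByExpr were scaled by TMM and fitted in edgeR 4.0.16 (R 4.3.3) by quasi-likelihood, each treatment having its own mean. All 12 libraries entered, giving 8 residual degrees of freedom. Each comparison was tested with the F test and Benjamini-Hochberg adjustment over all genes, with 0.05 as the threshold. SE was obtained as |log2 change| over the root of F. Non-additivity is the combination's log2 change minus the sum of the single changes. CPM are counts scaled by the TMM library size. The common biological coefficient of variation was 0.0487. Replicates of a group differed by more than counting noise (chi-square per degree of freedom 2.32 to 13.6), so none was a copy. Replicate intervals and tests cover the spread between these libraries only.

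The members, the 26 partner genes and the marker lists were chosen with earlier results of these data known. Values in every library are given for up to 3 members per role of smallest p among those that passed in the combination or XL413 comparison with DMSO, for the member of smallest p in each other comparison or in a role where none passed, and for CENPA. Of partners that passed, the 8 of smallest p are named. Other members are given by mean, range or count, and genes singled out beyond this rule are marked as chosen after their values were seen. The muscle score is the mean log2 CPM (prior count 2) of 17 muscle genes. Transcript lengths, GC content and exon overlaps came from GENCODE annotation of GRCh38, and 96.9% of tested genes had a length. Promoters and gene positions are from RefSeq. Some partners (CENPS, CENPX, KNL1, SGO1 and SGO2) were matched by older symbols.

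On data simulated for XL413 against DMSO, with 15353 genes of which 50 were changed per fold size, recovery was 52% for 1.2-fold, 86% for 1.3-fold, 86% for 1.5-fold and 92% for 2-fold changes. There were 8 false calls in 15153 genes left as they were. Alternatives were RLE and upper-quartile factors, no filter, DESeq2 1.42.0, a replicate block, the muscle score as a covariate, only the libraries compared, combination replicate 1 alone, and each library left out. Offsets for transcript length and GC content were added after the data were seen.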

Additional observations from a re-analysis of the deposited data

How the results depend on the processing

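No member called in the fit reported changed direction under any alternative: of 326 recomputed values 241 kept their call, 85 lost it and 0 reversed. With the muscle score as a covariate, genes passing numbered 273 (members 4) in the combination against DMSO, 186 with XL413, 65 with OF1, 9 (members 0) for XL413 added to OF1 and 34 (members 0) for OF1 added to XL413. With only the libraries compared they numbered 885 in the combination, 1345 (members 7) with XL413, 110 (members 0) for XL413 added to OF1 and 303 (members 0) for OF1 added to XL413. With combination replicate 1 alone they numbered 871 (members 6) against DMSO, 53 (members 2) against OF1, 156 against XL413 and 1 for non-additivity. DESeq2 called 649 genes (members 7) with XL413, 370 with OF1 and 103 for non-additivity, where omitting the filter gave 132. With the length and GC offsets, chosen after seeing the data, genes passing numbered 2460 (members 13) in the combination against DMSO, 1250 (members 7) with XL413, 456 with OF1, 1663 (members 13) for XL413 added to OF1, 1101 (members 5) for OF1 added to XL413 and 140 (members 1) for non-additivity. Fits to fewer libraries have fewer residual degrees of freedom, and the counts moved both ways in them. With only the libraries compared, the count went from 430 to 1345 genes with XL413 and from 1645 to 885 in the combination against DMSO. The cause of these shifts was not tested.

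Leaving out 1 library at a time gave 726 to 2126 genes and 6 to 13 members in the combination against DMSO, 85 to 268 genes and 1 to 4 members with XL413, and 45 to 83 genes and 0 to 0 members with OF1. For XL413 added to OF1 it gave 227 to 2293 genes and 4 to 14 members, for OF1 added to XL413 161 to 855 genes and 0 to 2 members, and for non-additivity 0 to 373 genes and 0 to 0 members. With the replicate number as a block, genes passing numbered 1573 (members 10) in the combination, 361 (members 5) with XL413, 126 (members 0) with OF1, 850 (members 8) for XL413 added to OF1, 476 (members 1) for OF1 added to XL413 and 2 (members 0) for non-additivity. Same-numbered libraries did not deviate together (mean r -0.029 over 18 pairs, from -0.161 to 0.199), so the numbers were not taken as a pairing. In the simulation of XL413 against DMSO 52% of 1.2-fold changes were called. Smaller changes and the other comparisons were not simulated.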
